A study of Mus musculus with 8 samples.

Results

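Brown fat makes heat when sympathetic nerves release noradrenaline onto its fat cells, and the genes described here carry that signal from the cell surface to protein kinase A. They were taken as the rows of the deposited count table whose gene symbol is Adrb1, Adrb3, Adra1a, Adra2a, Gnas, Adcy3, Pde3b, Prkar2b or Ppp1r1b, and all 9 were found among 54532 genes. Noradrenaline binds beta receptors, which act through the stimulatory G protein (alpha subunit from Gnas) on adenylyl cyclases (Adcy3), and the cyclases make cyclic AMP (cAMP). Phosphodiesterases such as the one from Pde3b break cAMP down. cAMP frees the catalytic subunits of protein kinase A (PKA) from regulatory subunits such as the one from Prkar2b, and PKA then drives lipolysis and the transcription of heat-producing genes. Alpha-1 receptors (Adra1a) signal through calcium instead, alpha-2 receptors (Adra2a) lower cAMP, and the product of Ppp1r1b, DARPP-32, blocks protein phosphatase 1 once PKA has phosphorylated it, as known from striatal neurons.

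RNA was sequenced from the interscapular brown fat of 8 male mice, aged 7 months, on normal chow and held at 4 °C for 24 h in metabolic cages. By the labels, 4 mice (KO) carried a floxed Pparg gene, the gene of a nuclear receptor needed to form fat cells, together with the Myl1-Cre recombinase, and 4 mice (WT) carried the floxed gene alone. The controls therefore hold the floxed allele too, no warm-housed mice were analysed here, and Cre acts only in cells that express, or descend from cells that expressed, the myosin light chain gene Myl1. The series asks what Myl1-positive fat progenitors contribute to adult brown fat.

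The libraries held 12226608 to 19268945 counts, and 13756 genes passed the filter on low counts. Levels are CPM, counts relative to the TMM-scaled library size, as mean ± SD over 4 mice, and KO 1 to KO 4 and WT 1 to WT 4 name the libraries by label and mouse number. Fold changes are log2 of KO over WT with the standard error (SE), adjusted p are from edgeR's quasi-likelihood test over all 13756 genes unless another tool is named, and the threshold is 0.05. The targeted gene goes against its label. Pparg had 279, 267, 269 and 320 CPM in the libraries labelled KO, against 201, 200, 186 and 202 CPM in the WT libraries, a log2 fold change of 0.52 ± 0.09 (adjusted p = 0.0328). A count over the whole gene includes exons outside a floxed part, so it is a weak check, and directions below rest on the genotype labels. Myl1 stood at 367 ± 105 CPM in the libraries labelled KO and 378 ± 68.8 CPM in WT. The tissue label is borne out by Ucp1, the uncoupling protein of brown fat, which averaged 10372 CPM over the 8 libraries. All 11 brown fat markers examined passed the filter, but so did all 30 skeletal muscle and all 14 macrophage markers. Passing the filter therefore does not single out brown fat.

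Marker lists of several cell types lay mostly to 1 side of 0 beside the results below. All 11 general fat cell markers (among them Adipoq, Plin1 and Fabp4) had log2 fold changes below 0, with a median of -0.31, 1 called (Pck1) and summed levels of 25163 to 31408 CPM in the libraries labelled KO against 29892 to 35022 CPM in WT. All 30 skeletal muscle markers lay above 0, with a median of 0.70 and summed levels of 14636 to 26824 CPM in the libraries labelled KO against 7597 to 20474 CPM in WT. All 14 macrophage markers (median 0.42) and all 8 tested Schwann cell markers (0.34, 1 called) lay above 0, and all 5 erythroid markers (-0.80) below. Of the brown fat markers 3 of 11 lay above 0 (median -0.38), while endothelial, mural and fibroblast lists had medians of 0.02, 0.10 and -0.01. No score passed a test against the spread between mice (exact two-sided permutation p = 0.0571 for fat cells and for macrophages, 0.0857 for muscle and 0.114 for Schwann cells, each 0.19 after adjustment over the 10 lists tested, where 4 against 4 libraries allow no p below 0.0286). In whole tissue, fewer cells of a type and less RNA per cell cannot be told apart, and the part of these markers in the results below was not tested beyond the fit with a muscle score.

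Of the 9 genes, Ppp1r1b alone passed the threshold with all libraries in edgeR. Ppp1r1b rose 5.06-fold in the libraries labelled KO. Adrb3, Adra1a, Adcy3, Pde3b and Prkar2b had lower means by similar amounts (log2 fold changes between -0.56 and -0.49), Adrb1 and Gnas smaller ones (-0.37 and -0.19), and Adra2a was barely detected. Of the 8 members that passed the filter, 1 was called, where 0.385% of all genes tested were called (0.291% higher and 0.0945% lower). The median log2 fold change of the 8 was -0.51, against 0.00 over all genes tested, and 7 of the 8 lay below 0, against 49.7% of all genes. The unadjusted p was below 0.05 for 6 of the 8 (5 negative and 1 positive), against 15.2% of all genes (7.12% negative and 8.05% positive). The groups did not overlap for 4 of the 8, against 8.10% of all genes (3 lower, against 4.00%, and 1 higher, against 4.10%). These counts describe a list put together with results of these data known.

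**Figure D1:**
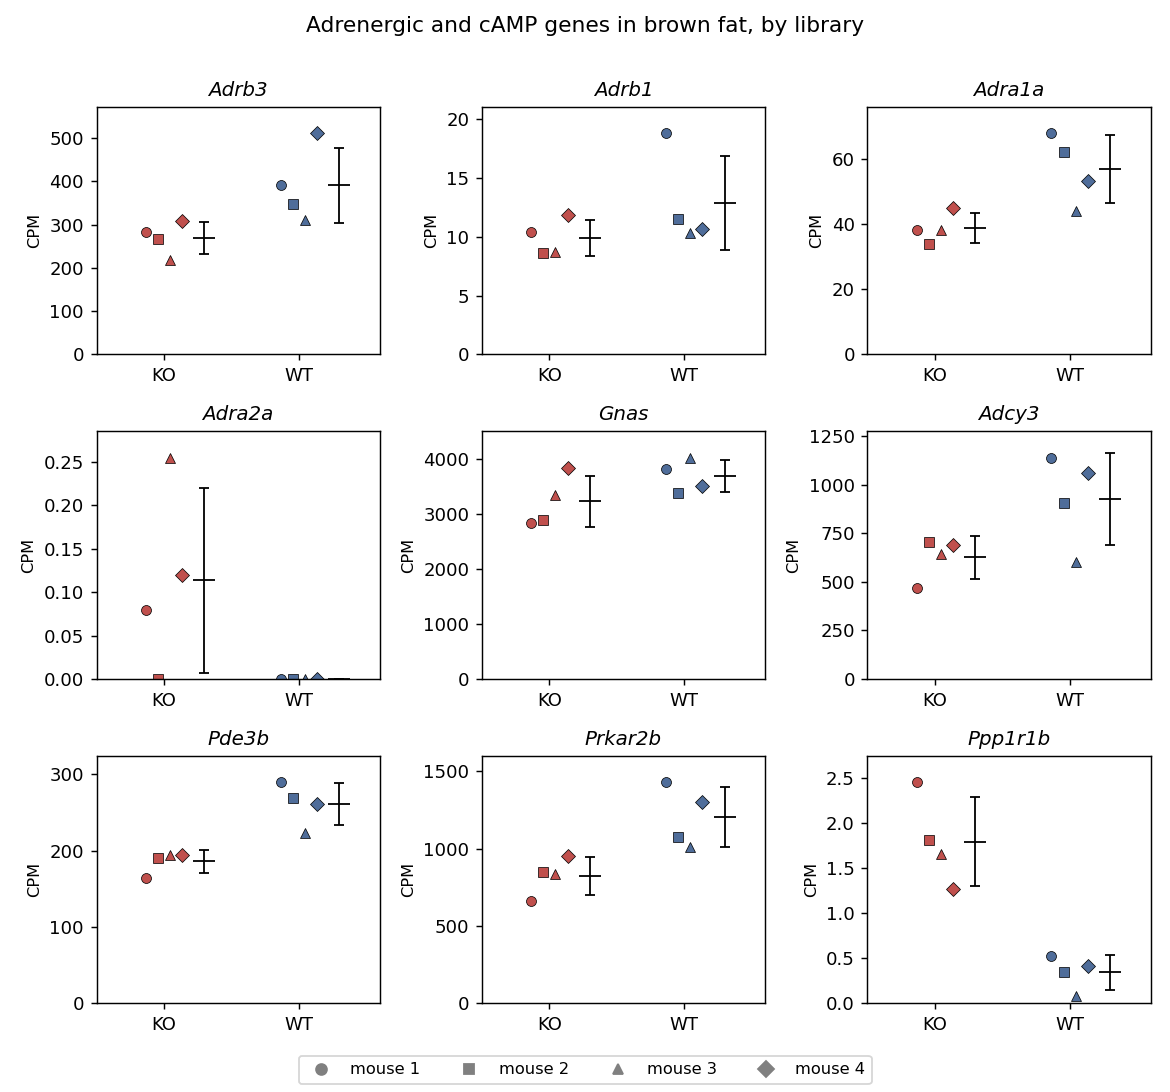
CPM (vertical axes, each from 0) of the 9 genes in the 4 libraries labelled KO (red) and the 4 WT libraries (blue), with mouse numbers as symbols and the group mean ± SD as the black bar. The groups do not overlap for Adrb3, Pde3b and Prkar2b, which are lower in all 4 libraries labelled KO, or for Ppp1r1b, which is higher in all 4.

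The order of levels was compared per kilobase of exon (RPKM, CPM divided by the summed exon length in kilobases). That length counts all annotated exons of a gene, whichever of them its RNA holds, 11186 bases for Gnas and 3652 bases for Prkar2b. A gene with many alternative exons can thus read too low, and the order of Gnas and Prkar2b depends on these lengths. Gnas came first with a mean of 310 RPKM over the 8 libraries, followed by Prkar2b at 278, Adcy3 at 124, Adrb3 at 97.7, Pde3b at 24.5, Adra1a at 5.48, Adrb1 at 3.36, Ppp1r1b at 0.365 and Adra2a at 0.0117 RPKM. The ranges over libraries overlapped for Gnas and Prkar2b (253 to 360 and 181 to 391 RPKM), for Prkar2b and Adcy3, for Adcy3 and Adrb3, for Adra1a and Adrb1, and for Ppp1r1b and Adra2a. The ranges of Adrb3 and Pde3b, of Pde3b and Adra1a, and of Adrb1 and Ppp1r1b did not overlap. Within single libraries, the order also held in all 8 for Prkar2b over Adcy3, Adra1a over Adrb1 and Ppp1r1b over Adra2a. It held in 7 for Adcy3 over Adrb3 and in 6 for Gnas over Prkar2b. The gene with the largest log2 fold change was thus next to last in level.

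Receptors come first in the path. Adrb3 (ENSMUSG00000031489, GRCm38 chromosome 8, 27225776 to 27250616, minus strand) encodes the beta-3 receptor, the main beta receptor of mouse fat cells. It had 283, 266, 219 and 308 CPM in the libraries labelled KO, against 392, 349, 312 and 511 CPM in WT. Every library labelled KO lay below every WT library, though KO 4 and WT 3 differed by little. Its log2 fold change was -0.54 ± 0.16 with an adjusted p of 0.164, which misses the threshold, and the 95% interval ran from -0.88 to -0.19. Exons of the uncharacterised gene Gm45470 on the other strand cover 839 bases of the 3376 exonic bases of Adrb3, and that gene held 591 counts over the libraries labelled KO and 785 over WT, against 16117 and 22234 for Adrb3. The libraries were stranded by their kit, but how strand was used in counting is not stated, so reads in that overlap are uncertain.

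Adrb1 (ENSMUSG00000035283, chromosome 19, 56722199 to 56733113, plus strand), the beta-1 receptor, which is known in brown fat from precursor cells, had 10.4, 8.63, 8.72 and 11.8 CPM in the libraries labelled KO, against 18.8, 11.5, 10.4 and 10.7 CPM in WT. The groups overlapped, and WT 1 lay far above the other 7 libraries. This gave a log2 fold change of -0.37 ± 0.20 (adjusted p = 0.405, 95% interval -0.81 to 0.07), and -0.13 without WT 1.

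Adra1a (ENSMUSG00000045875, chromosome 14, 66635251 to 66771168, plus strand), the alpha-1A receptor, had 38.2, 33.9, 38.1 and 44.9 CPM in the libraries labelled KO, against 67.9, 62.3, 44.2 and 53.2 CPM in WT. The groups overlapped only where KO 4 passed WT 3. It had a log2 fold change of -0.55 ± 0.14 (adjusted p = 0.124, 95% interval -0.85 to -0.25). Of its relatives, Adra1d stood at 3.97 ± 1.30 CPM in the libraries labelled KO and 4.41 ± 0.907 CPM in WT, and Adra1b had 2 counts in all over the libraries labelled KO and 10 over WT.

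Adra2a (ENSMUSG00000033717, chromosome 19, 54044151 to 54048982, plus strand), the cAMP-lowering alpha-2A receptor, had 1, 0, 4 and 2 counts in the libraries labelled KO and no count in any WT library. A count of 0 allows a level of up to 0.150 CPM in the deepest and 0.250 CPM in the shallowest WT library (3 counts of the scaled library size, counting error only), and KO 3 alone lay above 3 counts, so no fold is given. The gene did not pass the filter, and in edgeR with no filter it had an unadjusted p of 0.0263 and an adjusted p of 0.347. Adra2b and Adra2c were also low, at means of 0.410 and 0.765 CPM in the libraries labelled KO and 0.377 and 0.602 CPM in WT.

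Next in the path is the stimulatory G protein. Gnas (ENSMUSG00000027523, chromosome 2, 174284320 to 174346744, plus strand), an imprinted locus, had 2834, 2904, 3352 and 3851 CPM in the libraries labelled KO, against 3828, 3397, 4031 and 3524 CPM in WT. It was among the 20 most abundant genes of the table. The groups overlapped, and KO 4 exceeded 3 of the 4 WT libraries. The log2 fold change of -0.19 ± 0.12 had an adjusted p of 0.49 and a 95% interval of -0.47 to 0.08, so a fall by more than 0.47 lay outside the interval. Of the 24 other tested genes of G proteins, their regulators, receptor kinases and arrestins, 0 passed in edgeR and 0 in DESeq2. An unadjusted p below 0.05 was seen for 3 of the 24, where 15.2% of all genes had one (7.12% negative). Those 3 were the receptor kinase gene Grk3, which marks stimulated receptors for shut-off, at 154 ± 52.4 CPM in the libraries labelled KO and 245 ± 55.7 CPM in WT, together with Rgs7 and Gnaq, all with negative log2 fold changes (-0.67, -0.43 and -0.18).

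Adcy3 (ENSMUSG00000020654, chromosome 12, 4133103 to 4213525, plus strand), an adenylyl cyclase abundant in fat, had 466, 706, 643 and 688 CPM in the libraries labelled KO, against 1139, 904, 601 and 1059 CPM in WT. WT 3 lay inside the range of the libraries labelled KO, and KO 1 was the lowest of all 8. The log2 fold change was -0.56 ± 0.19 (adjusted p = 0.224, 95% interval -0.99 to -0.14). Exons of Cenpo on the other strand overlap it, but that gene held 128 counts over the libraries labelled KO and 121 over WT, against 38018 and 53491 for Adcy3. Per kilobase Adcy3 supplied 62.0 to 74.2% of the transcripts of the 10 adenylyl cyclases in the libraries labelled KO and 66.6 to 79.5% in WT.

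Adcy6, the second most abundant cyclase per kilobase, was more even among mice than Adcy3. It had 175, 160, 161 and 163 CPM in the libraries labelled KO, against 216, 216, 211 and 224 CPM in WT, with no overlap. Its log2 fold change of -0.40 ± 0.08 had an adjusted p of 0.0623, and it passed with limma-voom (adjusted p = 0.0453) and DESeq2 (1.19e-05). Adcy2 went the other way, with a log2 fold change of 0.90 ± 0.33 (adjusted p = 0.239).

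Pde3b (ENSMUSG00000030671, chromosome 7, 114415281 to 114539251, plus strand) encodes the phosphodiesterase through which insulin lowers cAMP in fat cells. It had 164, 191, 194 and 195 CPM in the libraries labelled KO, against 289, 268, 223 and 260 CPM in WT, with no overlap. Its log2 fold change of -0.49 ± 0.10 had an adjusted p of 0.0903, the nearest to the threshold among the members that were not called, and a 95% interval of -0.71 to -0.26. Pde4a and Pde4d, the other phosphodiesterase genes with the highest CPM, had log2 fold changes of -0.09 ± 0.13 and 0.09 ± 0.18. Of the 13 other phosphodiesterases tested, 0 passed in edgeR or in DESeq2. An unadjusted p below 0.05 was seen for 2 of the 13, Pde7a and Pde10a, both positive, where 15.2% of all genes had one (8.05% positive). As a share of the transcripts of 16 phosphodiesterases per kilobase, Pde3b made up 27.7 to 34.4% in the libraries labelled KO and 36.6 to 41.9% in WT, and these ranges did not overlap. Exons of Gm45837 on the same strand cover 3955 of the 6149 exonic bases of Pde2a, which did not pass the filter. How reads in that overlap were counted is not stated, so the family total may be short of Pde2a.

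Prkar2b (ENSMUSG00000002997, chromosome 12, 31958476 to 32061296, minus strand) encodes the RII-beta regulatory subunit, the main one of fat cells. It had 661, 847, 838 and 950 CPM in the libraries labelled KO, against 1429, 1078, 1013 and 1301 CPM in WT. No library labelled KO reached the lowest WT library. It had a log2 fold change of -0.55 ± 0.14 (adjusted p = 0.136, 95% interval -0.86 to -0.24). Its share among the 4 regulatory subunit genes per kilobase was 74.0 to 79.5% in the libraries labelled KO and 80.9 to 83.2% in WT, and that of Prkar1a, the RI-alpha subunit, was 18.0 to 22.2% in the libraries labelled KO and 15.4 to 16.2% in WT. Neither pair of ranges overlapped, but shares of a common total are not separate results. Prkar1a itself had a log2 fold change of -0.21 ± 0.11 (adjusted p = 0.41).

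**Figure D2:**
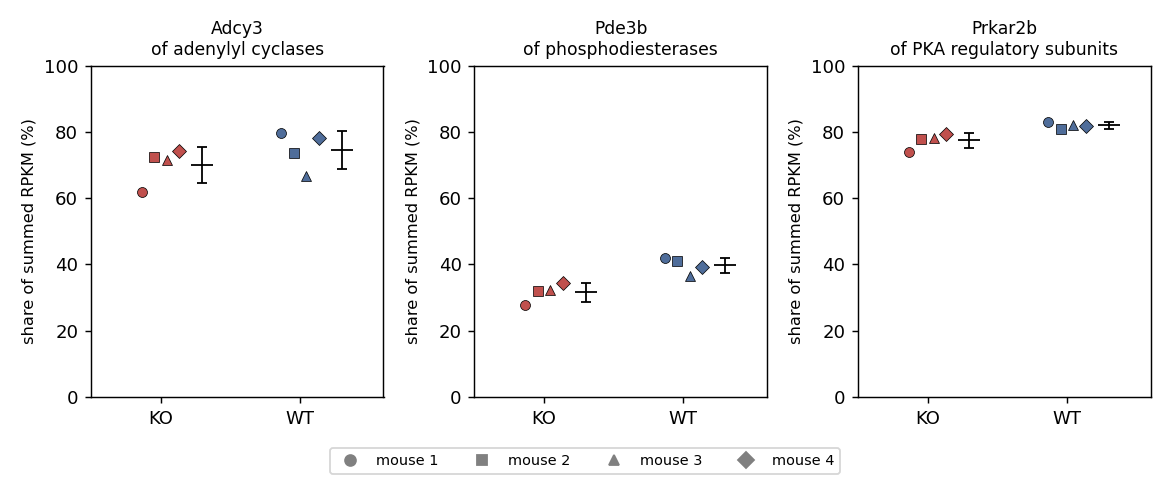
Share (percent, axes from 0 to 100) of each gene in the summed RPKM of its family, in the 4 libraries labelled KO (red, left) and the 4 WT libraries (blue, right), with the mean ± SD in black. The groups do not overlap for Pde3b (27.7 to 34.4% against 36.6 to 41.9%) and Prkar2b (74.0 to 79.5% against 80.9 to 83.2%), and do overlap for Adcy3.

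Other PKA genes were not called either. The catalytic subunit genes Prkaca and Prkacb had log2 fold changes of -0.32 ± 0.14 and -0.31 ± 0.08 (adjusted p = 0.308 and 0.141), and Prkacb had 42.0 to 46.1 CPM in the libraries labelled KO and 48.7 to 58.8 CPM in WT, without overlap. The PKA inhibitor genes Pkia and Pkig had positive ones, 0.84 ± 0.26 and 0.29 ± 0.11 (adjusted p = 0.188 and 0.266). Pkia had 89.5, 91.2, 115 and 52.7 CPM in the libraries labelled KO, against 28.7, 68.9, 49.8 and 46.0 CPM in WT. It is also expressed in muscle, and both KO 4, its lowest library of that group, and WT 1, the lowest of all, had the lowest muscle score of their groups (8.22 and 7.37 mean log2 CPM). In the fit with the muscle score, the log2 fold change of Pkia was 0.18 (adjusted p = 0.744). The mean score was itself higher in the libraries labelled KO (8.86, against 8.14 in WT), so that fit does not fully separate muscle content from genotype. The cause of the Pkia difference was not tested.

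**Figure D3:**
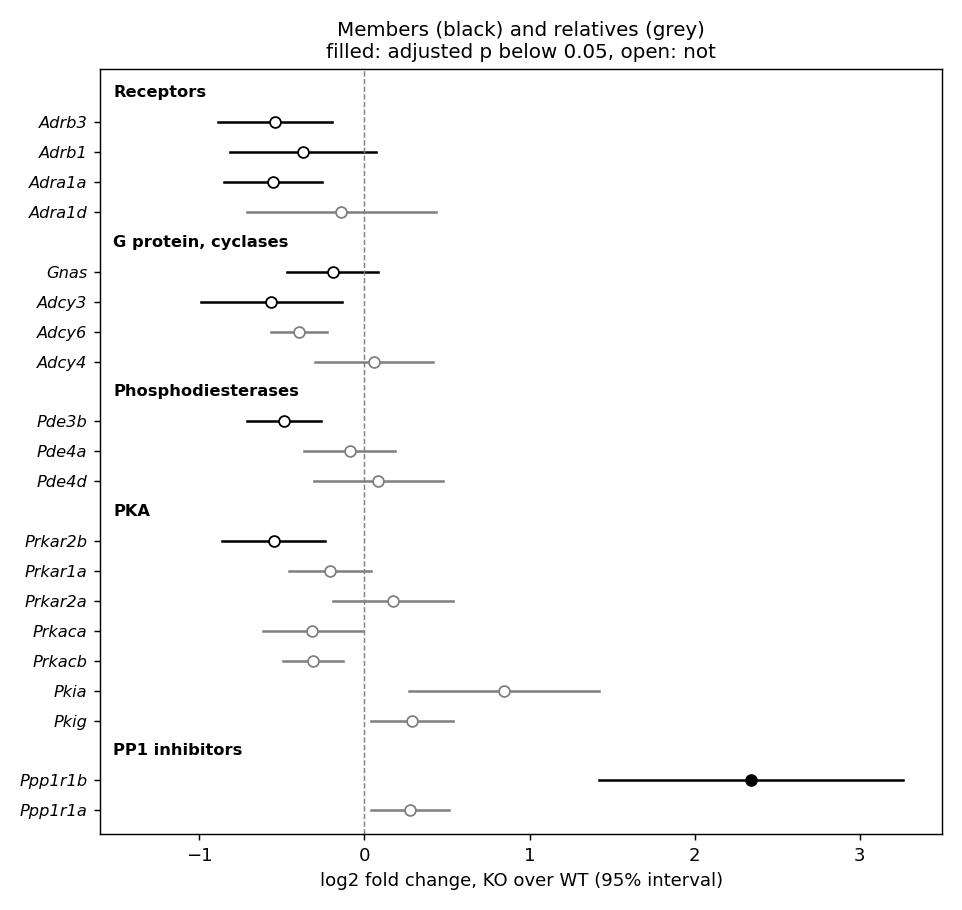
Log2 fold changes of KO over WT (horizontal axis) with 95% intervals from edgeR for 8 members (black) and relatives in the same steps of the path (grey). Only Ppp1r1b is filled (adjusted p below 0.05); Adrb3, Adra1a, Adcy3, Pde3b and Prkar2b lie between -0.56 and -0.49 with intervals below 0, and the interval of Adrb1 and of Gnas spans 0.

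Ppp1r1b (ENSMUSG00000061718, chromosome 11, 98348404 to 98357796, plus strand) was the one member past the threshold. It had 31, 27, 26 and 21 counts in the libraries labelled KO, against 7, 7, 1 and 5 counts in WT, or 2.45, 1.81, 1.65 and 1.26 CPM against 0.524, 0.351, 0.0797 and 0.417 CPM. Every library labelled KO lay well above every WT library. The difference was 2.34 ± 0.42 on the log2 scale (adjusted p = 0.0439, 95% interval 1.42 to 3.26). The 125 counts over 8 libraries make this the least deeply covered tested member. The call was lost in each fit without 1 of the 8 libraries (adjusted p from 0.0553 to 0.145, log2 fold changes from 2.05 to 2.59) and with limma-voom (0.0688), and DESeq2 gave 7.42e-04. Exons of 1700003D09Rik on the other strand overlap it, and that gene had no count in any library.

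DARPP-32 and its paralogue from Ppp1r1a, inhibitor-1, act on protein phosphatase 1 only when PKA has phosphorylated a threonine that follows a run of arginines, and these coding stretches show that shared site. They were read from the GENCODE M21 transcripts Ppp1r1b-201 (coding bases 82 to 108) and Ppp1r1a-201 (coding bases 85 to 111), 5′ to 3′, with the threonine codon in capitals.
Ppp1r1b: atccggcgccggagaccaACCcctgcc
Ppp1r1a: attcggaggcgccgccccACCcctgcc
The stretches have the same base at 20 of 27 positions. Ppp1r1a had 72.6, 75.6, 72.7 and 77.7 CPM in the libraries labelled KO, against 53.8, 72.1, 67.3 and 53.1 CPM in WT, without overlap but with KO 1 close to WT 2 (log2 fold change 0.28 ± 0.11, adjusted p = 0.269). Per kilobase, Ppp1r1a was at 57.2 RPKM in the libraries labelled KO and 47.1 RPKM in WT, and Ppp1r1b at 0.612 RPKM in the libraries labelled KO and 0.117 RPKM in WT, so the changed gene was the far less abundant of the pair.

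Promoter windows, from 250 bases before to 50 after a transcription start (RefSeq, GRCm38.p6), were at hand for 5 of the 9 genes, Adrb1, Adra2a, Gnas, Adcy3 and Prkar2b, in 10 windows. They were searched on both strands for the cAMP response element TGACGTCA, its shorter core TGACG, which the full element contains, and the direct repeat DR1 that PPARG binds with its partner RXR, in an exact form and in a form with 1 free base in each repeat. The full element was in none of the 10 windows (1.79% of 32851 windows of all genes hold it), and so were both forms of DR1 (0.0396% and 0.381% of all windows), and the core was in 5 of the 10 windows, 1 of Adrb1, 1 of Adra2a and 3 of Gnas (20.8% of all windows). The Gnas windows that start at 174327499 and 174327518 overlap and hold the same core, so there are fewer separate core sites than windows with one. The share over all windows was not matched for G and C content, which ran from 56 to 81.7% in the 10 windows. A difference from that share therefore cannot be read as an enrichment. A window of this size leaves out distal sites, and a match of letters is not a binding site. The window of Adrb1, chr19:56721867-56722166 on the plus strand, is shown because it holds the core, in capitals, that starts 90 bases before the start, and that of Prkar2b, chr12:32061228-32061527 on the minus strand, because that gene had no overlap between groups and its window has no match.
Adrb1: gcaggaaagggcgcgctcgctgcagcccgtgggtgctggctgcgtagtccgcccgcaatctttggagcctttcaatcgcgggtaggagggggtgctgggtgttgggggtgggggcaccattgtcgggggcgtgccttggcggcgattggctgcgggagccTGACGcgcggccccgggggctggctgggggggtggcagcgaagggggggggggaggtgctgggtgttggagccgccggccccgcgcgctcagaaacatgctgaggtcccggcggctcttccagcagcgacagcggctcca
Prkar2b: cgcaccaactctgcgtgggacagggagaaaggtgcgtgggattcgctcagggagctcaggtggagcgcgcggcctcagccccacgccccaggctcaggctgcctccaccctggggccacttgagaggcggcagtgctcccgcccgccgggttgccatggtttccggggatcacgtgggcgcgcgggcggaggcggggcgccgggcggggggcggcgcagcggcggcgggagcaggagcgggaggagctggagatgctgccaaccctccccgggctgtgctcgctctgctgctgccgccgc
Both windows are rich in G and C, at 72.3% for Adrb1 and 75.0% for Prkar2b.

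Other tests and filters called up to 4 members lower. DESeq2 called Pde3b (adjusted p = 0.00281), Prkar2b (0.0186), Adra1a (0.0224) and Adrb3 (0.0437) lower and Ppp1r1b higher, where it called 2.35% of all genes (1.36% higher and 0.988% lower), and it did not call Adcy3 (0.101), Adrb1 or Gnas. edgeR with no filter on low counts called Pde3b and Adra1a lower (both 0.042) and Ppp1r1b higher, where 0.767% of all genes were called (0.484% higher and 0.283% lower), and limma-voom called none of them. In a fit that also held each library's muscle score, the log2 fold changes were -0.45 for Adrb3, -0.41 for Pde3b, -0.40 for Adra1a and Adcy3, -0.34 for Prkar2b, -0.03 for Gnas and 0.02 for Adrb1, with adjusted p from 0.432 to 0.981, and 2.20 for Ppp1r1b (0.322). Over 19 alternatives, or 18 for Gnas, the direction was the same for the 8 tested members except Adrb1.

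**Figure D4:**
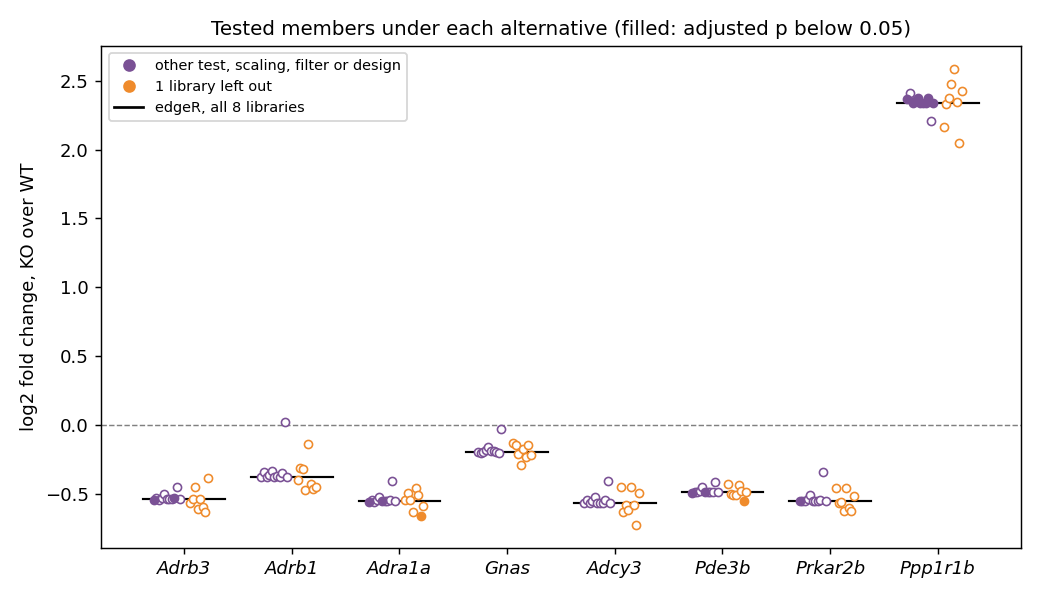
Log2 fold change of KO over WT (vertical axis) for the 8 tested members under 11 other tests, scalings, filters or designs (purple) and with 1 library left out in turn (orange), with the value from all 8 libraries as a black line and filled points past an adjusted p of 0.05. Ppp1r1b stays between 2.05 and 2.59 but is open in all 8 fits with a library left out, and Adrb1 alone crosses 0.

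The rest of the path was read from 13 lists of receptors, cyclases, phosphodiesterases, PKA partners, transcription factors, cAMP response genes, lipolysis effectors and noradrenaline handling. Besides the members they held 196 genes, of which 161 were tested, with a median log2 fold change of -0.01. None of the 161 passed in edgeR (41 at an unadjusted p below 0.05, 19 positive and 22 negative, where 15.2% of all genes had such a p). DESeq2, which tested 168 of these genes, called 3 higher and 6 lower, where it called 2.35% of all genes. The 6 lower genes by DESeq2 were Adcy6, Sik2, Elovl3, Plin1, Lipe and Akap1, and the 3 higher were Pkia, Bmp8b and Pth1r. Naming these 9 follows their calls.

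Sik2, a salt-inducible kinase that PKA switches off and that holds back CREB coactivators, came as near to the threshold as Adcy6. It had 75.8, 96.0, 79.4 and 91.6 CPM in the libraries labelled KO, against 161, 149, 103 and 147 CPM in WT, without overlap (log2 fold change -0.71 ± 0.14, adjusted p = 0.0623). Among the lipolysis effectors of PKA all 8 lay below 0, where 49.7% of all genes did, with a median of -0.25 and none past the threshold in edgeR. Of the 8, 4 had an unadjusted p below 0.05, where 7.12% of all genes had one with a negative fold change, and DESeq2 called 2 lower, where it called 0.988% of all genes lower. Plin1, which coats the lipid droplet, had 656 to 855 CPM in the libraries labelled KO and 888 to 1144 CPM in WT, and Lipe, the hormone-sensitive lipase, 731 to 1004 CPM in the libraries labelled KO and 1029 to 1286 CPM in WT, neither with overlap. Both are also fat cell markers, so they are not separate from the fat cell list above. Pnpla2 and Mgll, the 2 with the highest CPM, had log2 fold changes of -0.12 and -0.20.

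cAMP response genes did not share a direction. Of 25 tested, 16 lay above 0 and 9 below, with a median of 0.08. An unadjusted p below 0.05 was seen for 6 with a positive and 2 with a negative fold change, where 8.05% and 7.12% of all genes had one. The 6 were Fos, Atf3, Fgf21, Bmp8b, Nr4a3 and Nr4a1, the 2 were Elovl3 and Dio2, and none of the 25 passed in edgeR. Dio2 had a log2 fold change of -0.45 (adjusted p = 0.311). Elovl3, whose enzyme lengthens fatty acids and which cold induces, had 500 to 840 CPM in the libraries labelled KO and 925 to 1854 CPM in WT, without overlap (log2 fold change -0.95 ± 0.24, adjusted p = 0.125), and Ucp1 was at 9303 ± 1473 CPM in the libraries labelled KO and 11441 ± 1272 CPM in WT (-0.30 ± 0.14, adjusted p = 0.344). Fos, an immediate early gene, stood at 7.45 ± 3.49 CPM in the libraries labelled KO and 3.14 ± 1.66 CPM in WT (1.21 ± 0.39, adjusted p = 0.202). Other receptors that couple to cAMP in fat were read as well. The adenosine receptor gene Adora1, which lowers cAMP, had 27.8, 64.2, 57.1 and 58.5 CPM in the libraries labelled KO against 74.7, 102, 67.8 and 70.1 CPM in WT, and the fatty acid receptor gene Ffar4 stood at 41.8 ± 5.08 CPM in the libraries labelled KO and 62.1 ± 17.6 CPM in WT (adjusted p = 0.255 and 0.188). Transcripts of Th and Dbh, genes of noradrenaline synthesis, were few or absent. Of 10 sympathetic neuron markers, 2 passed the filter on low counts. The cell bodies of sympathetic nerves lie outside the tissue, but whether this accounts for the low counts was not tested. The cell source of the Th counts was not tested either. Th, the first enzyme of noradrenaline synthesis, had 42 counts over the libraries labelled KO and 21 over WT, and Dbh, the last, had 0 in every library.

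**Figure D5:**
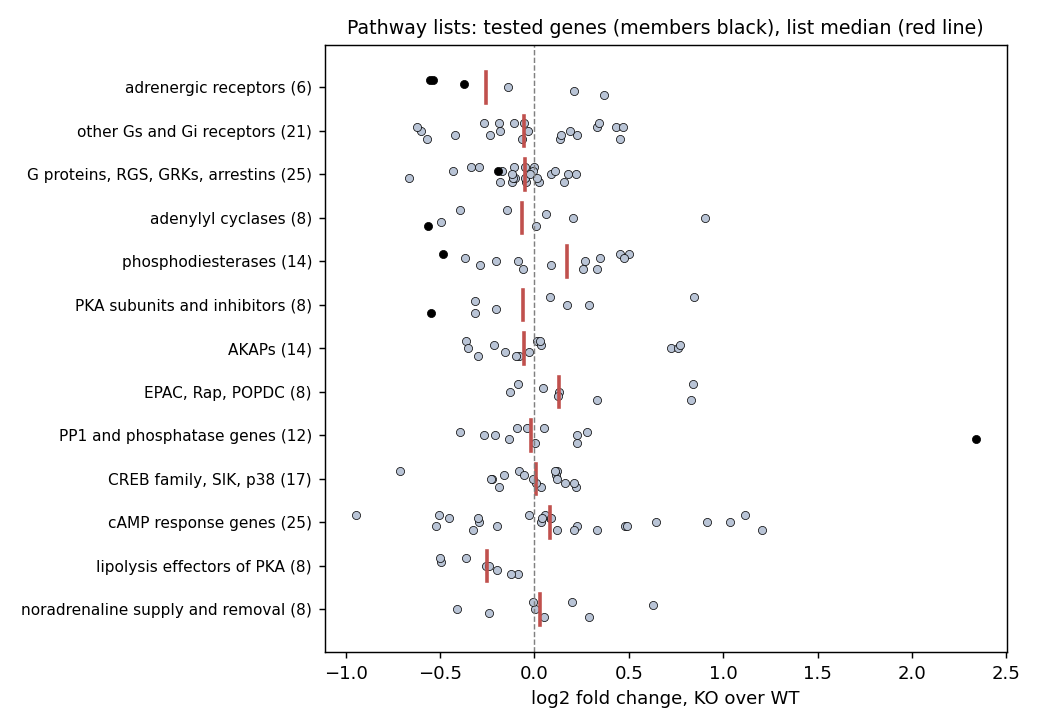
Log2 fold change of KO over WT (horizontal axis) of each tested gene in the 13 lists (number tested in brackets), members in black and list medians as red lines. Members sit at the low end of the receptor, cyclase, phosphodiesterase and PKA lists, and Ppp1r1b alone lies above 2.

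The genes whose profile over the 8 libraries was most like that of a member were found by the smallest root mean square difference in log2 CPM, each centred on its own mean, among 11990 named genes of at least 1 CPM. For Ppp1r1b these were Wdfy4, Azgp1 and Fgd3 with differences of 0.35, 0.41 and 0.48, where Ppp1r1b itself varied by 1.15, and none of the 3 passed (adjusted p = 0.125, 0.147 and 0.168). Their mean levels of 1.65, 1.26 and 1.16 CPM are near the cut, so these profiles rest on few counts. For Pde3b they were Atl3, Cdkl2 and Ipo9 (0.06, 0.06 and 0.07, against 0.27 for Pde3b itself), and for Adrb3 they were BC065397, Wdr73 and Htt (0.11, 0.13 and 0.14, against 0.35). BC065397 was also near the cut, at a mean of 1.13 CPM.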

How the data were processed

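RNA of interscapular brown fat from 8 mice, 4 labelled KO and 4 WT by genotype and number in the titles, was analysed. Per the labels' protocols, a Qiagen kit and TruSeq stranded mRNA libraries were used. The submitters' processing notes name GRCm38 and, without order or settings, featureCounts, Subread, HISAT2, Trimmomatic, SAMtools and FastQC. Strand mode and annotation release are not stated. The deposited values are raw read counts per gene, not normalized by the authors; columns were matched to mice by genotype and number. The labels call the samples separate mice, and every pair of libraries differed by more than counting noise (lowest chi-square over its degrees of freedom 11.2).

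CPM, the filter (filterByExpr), TMM and the test on genotype came from edgeR 4.0.16 (R 4.3.3), with Benjamini-Hochberg adjustment. SEs were derived from the log2 fold change and the F statistic. The procedure was tested on simulated data that gave every gene the same dispersion and changed only better-covered genes. How well a change in a gene with as few counts as Ppp1r1b is found was therefore not tested. Alternatives were DESeq2 1.42.0, limma-voom 3.58.1, 3 scalings, 2 filters, robust dispersion, mouse number as a block, a muscle score, 20 abundant genes left out, other thresholds and each library left out. Marker scores are mean log2 CPM (prior count 2). Positions and exon lengths are from GENCODE M21, which held 54409 of 54532 IDs. The members and lists were chosen with earlier results of these data known. Named genes are the members, Pparg and Myl1, the 2 most abundant genes and up to 4 passing genes of each list, relatives of at least 1 CPM and the 3 nearest profiles; genes named for a DESeq2 call or an unadjusted p were chosen after their values were seen. Protein sequences were not used here, and 1 related receptor gene is not reported here.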

Additional observations from a re-analysis of the deposited data

Results flagged for a closer look

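Among the 18 sets of 4 libraries (9 genes in 2 groups), 2 held a library far from the other 3 by Dixon's ratio, where chance gives about 1 in 20. Adrb1 had 18.8 CPM in WT 1, against 10.4 to 11.5 CPM in the other WT libraries. WT 1 also had the lowest skeletal muscle score of all 8 libraries (7.37 mean log2 CPM), and in the fit with that score the log2 fold change of Adrb1 was 0.024, against -0.37 without it. With WT 1 left out and no score, the log2 fold change of Adrb1 was -0.13. Whether muscle content plays a part was not tested. Pde3b had 164 CPM in KO 1, against 191 to 195 CPM in the other libraries labelled KO. KO 1 was also the lowest of its group for Adcy3 (466 CPM) and Prkar2b (661 CPM).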

How the results depend on the processing

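The median log2 fold change of the members lay between -0.59 and -0.37 under all alternatives, and the marker scores kept their direction and side of the threshold with another prior count. The 1 member called higher was called in all settings but limma-voom (0 higher), the muscle score as a covariate (0), a threshold of 0.01 (0) and each fit with a library left out (0 in all 8). Members called lower numbered 0 with all libraries, 4 in DESeq2, 2 with no filter, 1 with the replicate block, 1 at a threshold of 0.1, and 0 to 2 with a library left out (2, Pde3b and Adra1a, without WT 3). The log2 fold change of Adrb1 turned to 0.024 with the muscle score. Over all genes, 40 were called higher and 13 lower, against 209 and 152 in DESeq2, 118 and 69 with no filter, 109 and 46 with the block, 20 and 1 with the muscle score, 73 and 53 at 0.1, 19 and 1 at 0.01, and 23 to 38 and 0 to 37 with a library left out (higher: 23 without KO 1, 26 without KO 3 and 25 without WT 2; lower: 37 without WT 3, 0 without KO 3, 1 without KO 1, 3 without WT 2 or WT 4, 5 without WT 1 and 7 without KO 4). Of the other path genes 0 were called, against 3 higher and 6 lower in DESeq2, 1 and 2 with no filter, 4 and 2 with the block, 0 and 1 with limma-voom, 0 and 1 with robust dispersion, 0 and 2 at 0.1, and 0 higher and 0 to 1 lower with a library left out (Sik2 without WT 3). The cause of these shifts was not tested. The mouse numbers are not shown to pair mice: deviations of same-numbered libraries correlated at 0.02, 0.40, 0.03 and 0.17, and KO 1, KO 3 and KO 4 correlated best with another number. With the block Adrb3 passed (adjusted p = 0.0428). Depth limits Adra2a and Ppp1r1b.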
